A study of Manis javanica with 3 samples.

Results

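The macrophage and Kupffer cell genes described here were 10 genes that mark tissue macrophages or the resident macrophages of the liver, of 24220 genes in the expression tables. They were CD163, MARCO, VSIG4, CD68, CSF1R, MRC1, CD14, TYROBP, AIF1 and CTSS. They were chosen by gene name, and each was matched to 1 gene of the Malayan pangolin through the protein names that the deposited annotation gives. For 6 of them the Swiss-Prot symbol was the member's own. The other 4 carried the symbol of a related gene, namely SCARA5 for MARCO, CXADR for VSIG4, LAMP1 for CD68 and PLA2R1 for MRC1, and were found by the product named from the NR protein database. The symbol CSF1R stood on 8 genes, of which 1 was named as the colony-stimulating factor receptor and the other 7 as other receptors.

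The libraries came from 1 adult female Malayan pangolin (Manis javanica), a wild animal that died during rescue, and the groups were small intestine, salivary glands and liver. Each tissue gave 1 library of polyadenylated RNA selected from total RNA, with no treatment. There was therefore no replicate of any tissue, no spread between animals could be estimated, and differences between tissues cannot be told apart from differences between these libraries. No p-value is given for that reason, and every interval covers counting error only.

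The counts summed to 10158924 in the library labelled small intestine, 8318686 in salivary glands and 14568778 in liver. Levels are given as the number of fragments counted per gene and as FPKM, which divides fragments by transcript length and library depth and is the scale used here to compare genes with each other. Libraries were compared by counts scaled with TMM, a method that estimates 1 factor per library from the bulk of its genes. The 10 most abundant genes took 43.3% of all counts in the library labelled small intestine, 23.1% in salivary glands and 16.1% in liver.

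The tissue labels were set against marker genes. All 12 hepatocyte genes found in the tables were past a 2-fold difference towards liver in both comparisons, and their median FPKM was 403 in liver. Their median was 0.917 in the library labelled small intestine and 0.185 in salivary glands. Single genes were well above these medians, with ALB at 89.1 in the library labelled small intestine and SERPINA1 at 120 in salivary glands. Of the 12, 6 had at least 10 reads in the library labelled small intestine and 4 had them in salivary glands, and all of those were higher in liver. For the other hepatocyte genes a different call could hardly arise. In the library labelled small intestine, 13 stomach genes had a median FPKM of 652, led by the pepsinogen gene PGA at 94138 and the chitinase gene CHIA at 43108. The median of 14 enterocyte genes in the same library was 0.0595. FABP2, FABP1 and LCT had no count in any of the 3 libraries, and since liver cells also express FABP1, its 0 does not bear on the label. The stomach genes and the low enterocyte median go against that label, and the sample is called the library labelled small intestine. The salivary gland genes did not go one way. Of 7 tested, 3 were higher and 1 lower in salivary glands than in the library labelled small intestine, with a median log2 fold of -0.17. Their summed FPKM was 216 in salivary glands and 172 in the other library. The aquaporin gene AQP5 was at 94.3 and 2.29 in that order, and PIP was at 28.0 and 0.481. The keratin gene KRT5 was at 55.0 and 88.2, a difference not past 2-fold.

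Macrophages are phagocytes that settle in every organ, and Kupffer cells are those that line the blood sinusoids of the liver. They depend on signals through the receptor encoded by CSF1R, take up bacteria, complement-coated particles and worn blood components through scavenger, complement and lectin receptors, and digest them in lysosomes. CD163, MARCO, VSIG4, MRC1 and CD14 encode surface receptors, TYROBP an adaptor that relays receptor signals, AIF1 a calcium-binding protein of activated macrophages, and CD68 and CTSS a lysosomal membrane protein and a protease.

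All 10 members had their highest FPKM in liver. With a call meaning at least 10 reads in the 2 libraries together and a 2-fold difference or more, 10 of 10 members were higher in liver than in the library labelled small intestine, where 23.5% of the 17855 genes tested were higher. None of the 10 was lower, against 24.5% of those genes. Against salivary glands, 10 of 10 members were higher in liver, where 24.2% of the 17583 genes tested were higher, and 0 were lower, against 23% of those genes. The median log2 fold of the members was 3.62 against the library labelled small intestine and 3.60 against salivary glands, while the median over all tested genes was 0.05 in each comparison. The read minimum bears on these counts. In the first comparison MARCO, VSIG4, CTSS, AIF1 and TYROBP, 5 of the 10, passed it only through their liver counts, and so did MARCO, TYROBP, AIF1 and CTSS, 4 of the 10, in the second. For these genes a call other than higher in liver could hardly arise, so the counts of members are a description. The remaining 5 members of the first comparison and 6 of the second, which had at least 10 reads in the library compared with liver, were all higher in liver. With the same genes left out over the whole annotation, 15.8% of 15760 genes were higher and 27.7% lower in the first comparison, and 15.4% of 15391 were higher and 26.3% lower in the second. These shares keep genes that passed only through the other library. The same limit holds for the list counts that follow. Both comparisons use the same liver library, and the interval of every member's ratio lay above 1 in each. In whole tissue, fewer cells of a type and less RNA per cell cannot be told apart.

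Member levels in the other libraries were low. An FPKM above 1 was reached by 4 members in the library labelled small intestine, by 3 in salivary glands and by all 10 in liver, while among all genes 59.4%, 56.3% and 57.0% passed that level. The median member FPKM was 0.522, 0.687 and 10.97 in the same order, and the median over all genes was 2.16, 1.76 and 1.89. The median of the members thus lay below that of all genes in the library labelled small intestine and in salivary glands and above it in liver, although CD14 and CD163 were above the median of all genes in each library and CD68 was in the library labelled small intestine. Together they held 546 counts in the library labelled small intestine, 931 in salivary glands and 8540 in liver. CD163 and CD14 supplied most of these counts in each library, with 85.7% in the library labelled small intestine, 86.8% in salivary glands and 75.7% in liver. A count of 10 or less was found for 5 members in the library labelled small intestine and for 4 in salivary glands, so the ratios of these genes have wide intervals.

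**Figure D1:**
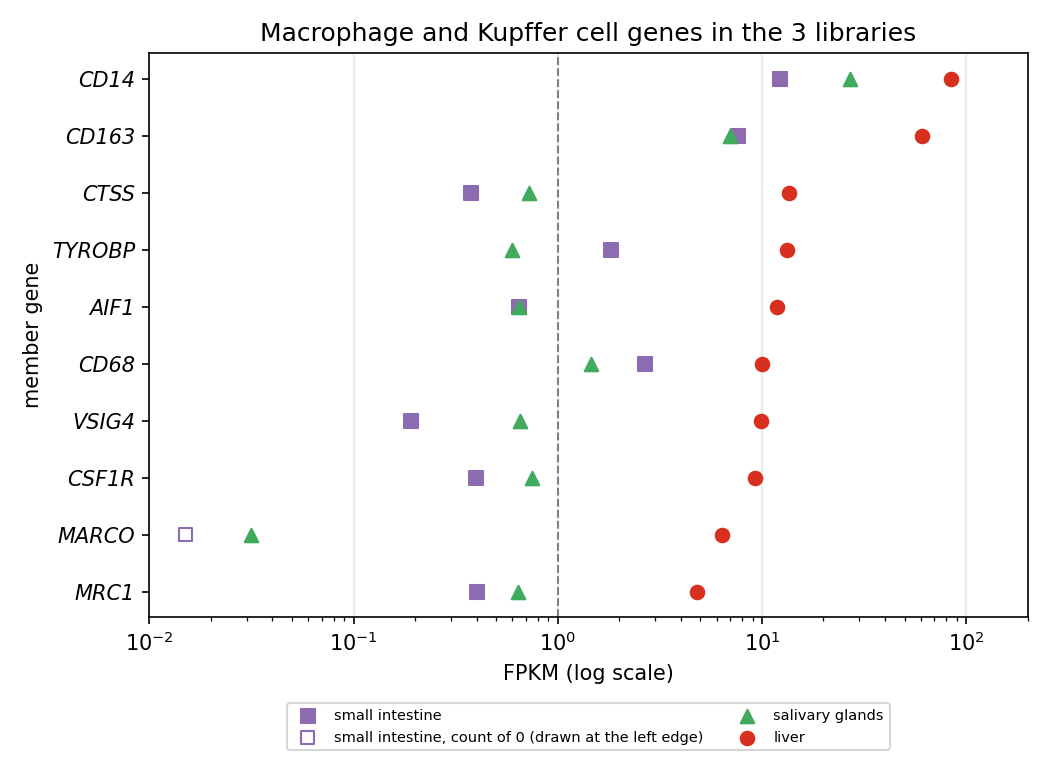
FPKM of each macrophage and Kupffer cell gene on a log axis in the library labelled small intestine (squares), salivary glands (triangles) and liver (circles), with 1 point per library, the dashed line at an FPKM of 1 and the open square for the count of 0. All 10 circles lie to the right of the dashed line, from 4.80 for MRC1 to 84.1 for CD14.

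The haemoglobin scavenger receptor gene CD163 (gene12806) was counted 283 times in the library labelled small intestine, 326 times in salivary glands and 3961 times in liver, at FPKM values of 7.67, 6.96 and 60.97. Its counts were close to each other outside the liver and far higher within it, and it held the second rank among the members by FPKM in all 3 libraries. The liver ratio of scaled counts was 8.27 (95% interval 7.33 to 9.36) against the library labelled small intestine and 8.07 (7.21 to 9.06) against salivary glands. CD163 clears haemoglobin bound to haptoglobin, and the released haem is broken down by haem oxygenase while the iron is stored in ferritin or exported. Of 14 tested genes of that route, 5 were higher in liver and 1 lower against the library labelled small intestine. Against salivary glands 6 of 13 were higher and 1 lower. The inducible haem oxygenase gene HMOX1 had counts of 158, 142 and 698 and a liver ratio of 2.61 (2.19 to 3.12) against the library labelled small intestine. The ferritin light chain gene FTL was counted 4482, 3408 and 60843 times, and its liver ratio was 8.02 (7.78 to 8.27) in that comparison and 11.9 (11.5 to 12.3) against salivary glands, the latter above that of CD163. The ferritin heavy chain gene FTH1 was not past 2-fold in either liver comparison, with a ratio of 0.916 (0.893 to 0.939) against the library labelled small intestine. The light chain gene was thus higher in liver along with CD163 and the heavy chain gene was not. A pair of genes named haptoglobin (HP) had FPKM values of 25755 and 6882 in liver. Haptoglobin is a plasma protein made chiefly by hepatocytes, and the share of the hepatocyte genes in these list counts was not tested.

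MARCO (gene23211), a scavenger receptor with a collagenous stalk that binds bacteria, had 0 counts in the library labelled small intestine, 1 in salivary glands and 202 in liver, and its FPKM was 0, 0.0314 and 6.37. It was thus all but undetected outside the liver. A count of 0 allows up to 3 counts, or 0.347 TMM-scaled CPM (counts relative to library size) in the library labelled small intestine, and against that floor MARCO was at least 39.8-fold higher in liver, while the exact 95% interval of the ratio began at 32.1. The liver ratio against salivary glands was 134, with an interval from 23.8 to 5325 that reflects the single count there. Other group A scavenger receptors and genes with scavenger receptor cysteine-rich domains did not share this direction as a list. Of the 11 tested besides CD163 and MARCO, 4 were higher in liver than in the library labelled small intestine and 7 were lower, and against salivary glands 5 were higher and 5 lower. The macrophage scavenger receptor gene MSR1 was counted 20, 23 and 262 times on its main gene model, with liver ratios of 7.74 (4.91 to 12.9) and 7.57 (4.93 to 12.2). SCARA3 ran the other way, with counts of 877, 216 and 72. SCARA5, a ferritin receptor of stromal cells, had counts of 51, 31 and 1.

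The complement receptor gene VSIG4 (gene3930), whose product binds C3b-coated particles and marks Kupffer cells, was counted 3, 16 and 300 times in the library labelled small intestine, salivary glands and liver. Its FPKM was 0.190, 0.652 and 9.93. The order of the libraries was liver, then salivary glands, then the library labelled small intestine, and the interval of the ratio lay off 1 for each pair of libraries. Its liver ratio was 59.1 (20.02 to 288) against the library labelled small intestine, where 3 counts set the width of the interval, and 12.5 (7.54 to 22.07) against salivary glands. The nearest gene, 1870 bases away and without any annotation, had counts of 5, 7 and 114 and so was also highest in liver. Among 9 other complement genes tested, all 9 were higher in liver in each comparison. The integrin chain gene ITGB2, part of complement receptors on leukocytes, had counts of 13, 18 and 772. The anaphylatoxin receptor gene C3AR1 was counted 17, 11 and 339 times. Soluble components moved the same way, and the larger of the gene models named C3 was counted 83, 111 and 141689 times. C3 is secreted mainly by hepatocytes, so the list mixes receptors of leukocytes with plasma proteins, and the part of each in its counts was not tested.

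MRC1 (gene5739), which encodes the mannose receptor of macrophages and sinusoidal endothelium, was counted 19, 35 and 325 times, at FPKM values of 0.401, 0.642 and 4.80. By FPKM it ranked 10 among the members in liver, 8 in salivary glands and 6 in the library labelled small intestine. The liver ratio was 10.1 (6.37 to 17.0) against the library labelled small intestine and 6.17 (4.34 to 9.01) against salivary glands. A second gene, named as MRC1-like, had counts of 148, 59 and 118 and was highest in the library labelled small intestine by FPKM, at 3.21 against 1.08 and 1.78. How reads that fit both genes were counted is not given in the sources used here. Of 5 other genes of the mannose receptor family and its C-type lectin neighbours, 3 were higher in liver and 1 lower against the library labelled small intestine, and 2 were higher and 1 lower against salivary glands. In the first comparison only 2 of the 5 did not pass through liver alone, 1 higher and 1 lower. CD209, a lectin of macrophages and dendritic cells, had counts of 7, 46 and 990, and its FPKM in liver was 54.3. The collagen receptor gene MRC2 had counts of 237, 94 and 21 and was lower in liver in each comparison.

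CSF1R (gene22971), the receptor on which macrophage survival depends, was counted 15, 36 and 669 times, with FPKM values of 0.400, 0.744 and 9.27. Its level in liver was far above its level in the other libraries, and it was lowest in the library labelled small intestine. The liver ratio was 26.3 (15.9 to 47.3) against the library labelled small intestine and 12.3 (8.82 to 17.8) against salivary glands. The gene shares 134 bases with a gene for an HMG domain-containing protein on the opposite strand, which had counts of 1149, 984 and 2476. The alignment did not use strand, so reads from the shared stretch cannot be assigned to either gene. The genes of its ligands had smaller liver ratios than the receptor. CSF1 was counted 224, 117 and 624 times, which gave a liver ratio of 1.65 (1.41 to 1.93) against the library labelled small intestine, not past 2-fold, and 3.54 (2.90 to 4.35) against salivary glands. IL34, the alternative ligand, was counted 898, 2280 and 2219 times and stayed within 2-fold in both liver comparisons. Its FPKM of 11.5, 27.7 and 21.02 was above that of CSF1 in all 3 libraries.

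The ligand genes CSF1 and IL34 shared a list with growth factors and receptors of other myeloid cells. CSF2RB, the shared chain of receptors for GM-CSF and related cytokines, had counts of 245, 280 and 1955. CSF3R, the receptor of granulocytes, had 0, 6 and 507 and was at least 99.8-fold higher in liver than in the library labelled small intestine against the floor, with an exact interval from 80.9. The ligand gene CSF3 had 737 and 341 counts outside the liver and 0 in liver, and CSF2 had no count in any library. The 6 genes tested in this list include CSF1 and IL34. Of these 6, 3 were higher and 1 lower in liver against the library labelled small intestine. Against salivary glands 4 were higher and 1 lower. Without the 2 that passed the read minimum only through liver, 1 was higher and 1 lower of 4 in the first comparison, and 2 were higher and 1 lower of 4 in the second.

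CD14 (gene4425), the co-receptor that hands lipopolysaccharide to Toll-like receptor 4, was the member with the highest FPKM in every library. It was counted 185, 482 and 2504 times, at FPKM values of 12.2, 26.9 and 84.1. It also had the smallest liver ratio of the members against salivary glands. The liver ratio was 7.996 (6.88 to 9.33) against the library labelled small intestine and 3.45 (3.13 to 3.81) against salivary glands. By FPKM, CD14 ranked 810th of all genes in liver, 2253rd in salivary glands and 5031st in the library labelled small intestine.

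The other genes of lipopolysaccharide sensing divided. Of 12 tested, 7 were higher in liver than in the library labelled small intestine and 0 were lower, whereas against salivary glands 6 of 13 were higher and 2 lower. Leaving out 3 and 4 genes that passed only through liver, 4 of 9 were higher and 0 lower, and then 2 of 9 were higher and 2 lower. Those lower in liver than in salivary glands were the genes of the signalling receptor itself. TLR4 was counted 20, 335 and 170 times, with a liver ratio of 0.337 (0.279 to 0.407) against salivary glands. LY96, which encodes the TLR4 partner MD-2, was counted 2, 16 and 6 times, with a ratio of 0.249 (0.0798 to 0.670). CD14 thus was higher in liver than in salivary glands while TLR4 and LY96 were lower there. LBP, the plasma protein that delivers lipopolysaccharide to CD14 and is made in the liver, had counts of 3309, 10141 and 97359 and an FPKM of 1212 in liver.

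TYROBP (gene12952), the adaptor known as DAP12, was counted 7 times in the library labelled small intestine, 4 times in salivary glands and 107 times in liver, at FPKM values of 1.83, 0.599 and 13.3. It was high in liver only, and its counts outside the liver were too low to order those libraries. The liver ratio was 9.03 (4.23 to 23) against the library labelled small intestine and 17.8 (6.74 to 66.4) against salivary glands. Only 164 bases separate it from HCST, which encodes the related adaptor DAP10 and had counts of 0, 0 and 2. The list of partner and signalling genes held 16 symbols on 22 gene models. A symbol such as INPP5D was counted on each of its models, which were all highest in liver. Of 17 tested models, 14 were higher in liver than in the library labelled small intestine. Against salivary glands 13 were higher, with 0 lower in either comparison. In those comparisons 9 and 8 of the 17 passed the read minimum only through liver, and of the rest 6 of 8 and 5 of 9 were higher. The Fc receptor adaptor gene FCER1G was counted 4, 15 and 300 times. TREM2, a receptor that signals through TYROBP, had counts of 1, 0 and 24. SYK, the kinase recruited by TYROBP, was not past 2-fold, with counts of 109, 124 and 258 on its larger gene model and a liver ratio of 1.40 (1.11 to 1.77) against the library labelled small intestine.

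AIF1 (gene9652), which encodes the actin-linked protein IBA1, was counted 4, 5 and 117 times, at FPKM values of 0.644, 0.647 and 11.9. The count was far higher in liver, and those outside it were too low to order the other libraries. The liver ratio was 17.3 (6.57 to 64.5) against the library labelled small intestine and 15.5 (6.47 to 48.8) against salivary glands. The related gene AIF1L had counts of 2, 1 and 0. Of 8 other tested genes near AIF1 or linked to actin in leukocytes, 3 were higher and 1 lower in liver against the library labelled small intestine, and 3 were higher and 2 lower against salivary glands. Apart from those that passed only through liver, 1 was higher and 1 lower of 6, and 1 was higher and 2 lower of 5. CORO1A, the leukocyte coronin gene, was counted 7, 12 and 205 times. TNF, a cytokine gene near AIF1, had counts of 10, 9 and 18, and LST1 had 34, 25 and 30.

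CD68 (gene15468), a lysosomal membrane glycoprotein of macrophages, was counted 27, 19 and 190 times, with FPKM values of 2.69, 1.46 and 10.02. Its liver ratio against the library labelled small intestine was the lowest of the members, with an interval that overlapped those of MRC1 and TYROBP. That ratio was 4.16 (2.77 to 6.47), and it was 6.64 (4.14 to 11.3) against salivary glands. The lysosomal cysteine protease gene CTSS (gene15242), which trims the invariant chain during antigen presentation, was counted 3, 7 and 165 times, at FPKM values of 0.375, 0.723 and 13.6. By FPKM it ranked 8 among the members in the library labelled small intestine, 5 in salivary glands and 3 in liver. Its liver ratio was 32.5 (10.9 to 159) against the library labelled small intestine and 15.7 (7.43 to 39.5) against salivary glands.

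The other cathepsin and lysosomal genes were divided. Of 17 tested besides CD68 and CTSS, 6 were higher and 2 lower in liver than in the library labelled small intestine, and 6 were higher and 3 lower than in salivary glands. CTSB, a cathepsin of many cell types, had the highest FPKM of the list in liver, at 1155, and counts of 2959, 3475 and 39816. The invariant chain gene CD74, whose product CTSS cleaves, was counted 213, 233 and 3717 times and had liver ratios of 10.3 (8.98 to 11.9) and 10.6 (9.28 to 12.2). CST3, an inhibitor of cysteine proteases, was counted 1114, 1348 and 607 times and was lower in liver in each comparison. PSAP, a lysosomal activator protein of most cells, stayed near a ratio of 1, at 1.07 (1.03 to 1.11) against the library labelled small intestine.

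**Figure D2:**
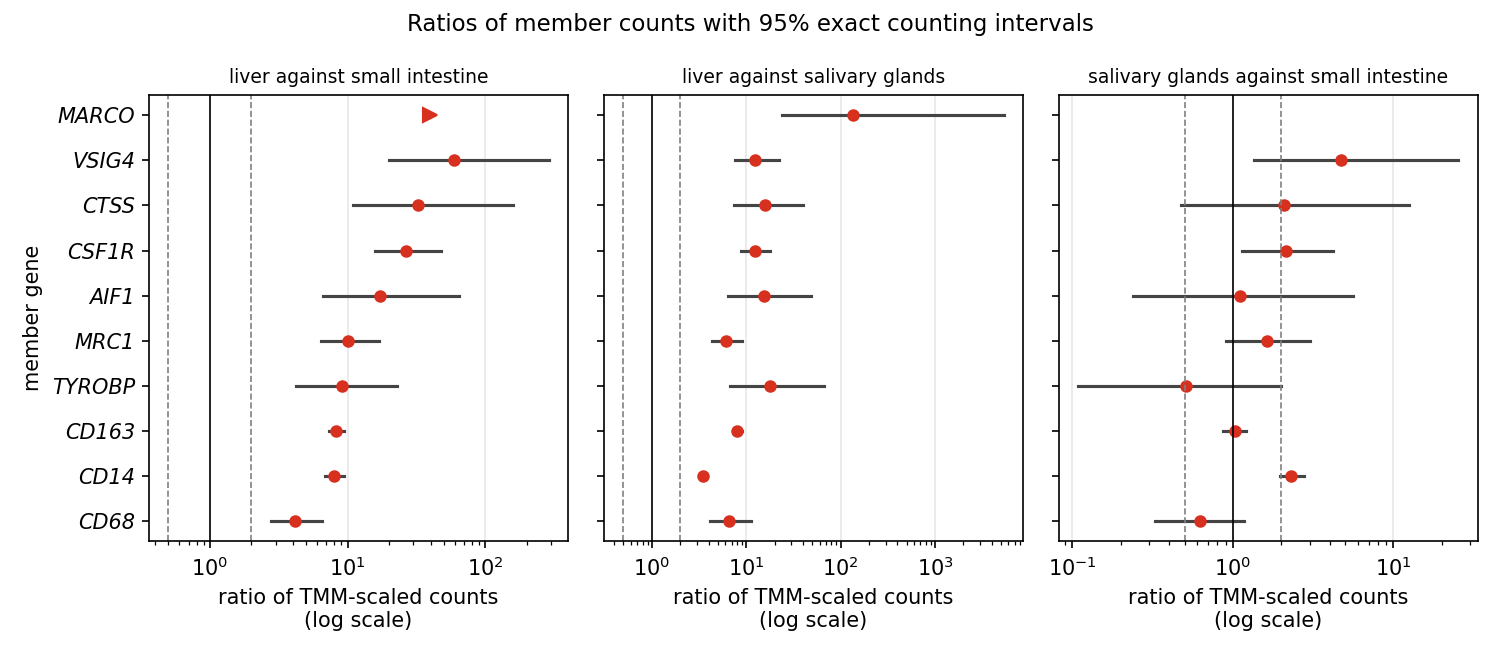
Ratios of TMM-scaled counts for each member on a log axis in the 3 comparisons, with 95% exact intervals for counting error, the solid line at a ratio of 1, dashed lines at 2-fold either way and an arrowhead for the lower bound of MARCO. Every liver ratio lies above 2, from 3.45 for CD14 against salivary glands to 134 for MARCO, while 7 of the 10 members have no interval above 1 in salivary glands against the library labelled small intestine, where MARCO has no ratio.

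Salivary glands and the library labelled small intestine differed far less in these genes. Of 8 members with enough reads, 3 were higher in salivary glands, where 16.5% of the 17045 genes tested were higher. None was lower, against 20.4% of those genes. MARCO and AIF1 had too few reads to be tested. The members called were VSIG4 with a ratio of 4.74 (1.36 to 25.4), CSF1R with 2.13 (1.14 to 4.20) and CD14 with 2.32 (1.95 to 2.76). CSF1R lost its call with a prior of 5 reads and by the ratio of FPKM, at log2 folds of 0.87 and 0.90. The intervals of VSIG4, CSF1R and CD14 reach below a ratio of 2, and for the remaining members the interval included 1 or no ratio could be formed. CD163 in particular had a ratio of 1.02 (0.871 to 1.21), and the difference for TYROBP, at 0.508 (0.109 to 1.999), was not detectable at this depth. The median log2 fold of the 8 members was 0.81, against 0.01 over all tested genes. Scaling by library size alone gave 5 members in place of 3, and it moved the share of higher genes among all called genes from 44.7% to 64.7%.

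The genes listed for Kupffer cell identity were largely higher in liver. Of 13 such genes tested besides CD163, MARCO and VSIG4, 12 were higher in liver than in the library labelled small intestine and all 13 were higher than in salivary glands. Of those that did not pass through liver alone, 8 of 9 and 11 of 11 were higher. The whole list of 17 genes summed to an FPKM of 107 in the library labelled small intestine, 62.9 in salivary glands and 1015 in liver, and the complement gene C1QC was its most abundant gene in liver at 367. CLEC4F, a lectin of Kupffer cells, had 0, 0 and 155 counts and was at least 30.5-fold and at least 34.3-fold higher in liver against the floor, with exact intervals from 24.5 and 27.6. TIMD4, a receptor for dying cells on resident macrophages, was counted 9, 8 and 1018 times. The folate receptor gene FOLR2 was counted 4, 10 and 1069 times. CD5L, a secreted scavenger receptor family protein, was counted 2, 19 and 869 times. These 4 genes had at most 19 counts in either library outside the liver, whereas C1QC had 322 and 333 there. The iron exporter gene SLC40A1 was the exception to the first count, with 257, 55 and 404 counts and a ratio of 0.929 (0.792 to 1.09) against the library labelled small intestine. SPIC, a factor of iron-recycling macrophages, had too few reads to be tested, with 0, 0 and 2.

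Markers used for macrophages of other tissues were counted in the same way. Of 19 tested, 14 were higher and 1 lower in liver against the library labelled small intestine, and 14 were higher and 3 lower against salivary glands. Genes that did not pass through liver alone were higher for 6 and lower for 1 of 11, and higher for 8 and lower for 3 of 13. Their summed FPKM was 144 in the library labelled small intestine, 256 in salivary glands and 246 in liver. The sum in salivary glands came mostly from a gene named FCGR2B, an inhibitory Fc receptor, with an FPKM of 171 there and 54.1 in liver. Of 15 tested factors of the myeloid lineage, 10 were higher and 2 lower in liver in each comparison. SPI1, which encodes PU.1 and is required for macrophages, was counted 13, 14 and 285 times, with liver ratios of 12.9 (7.45 to 24.6) and 13.5 (7.93 to 25.05). RUNX1 and KLF4 were the genes that were lower in liver.

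**Figure D3:**
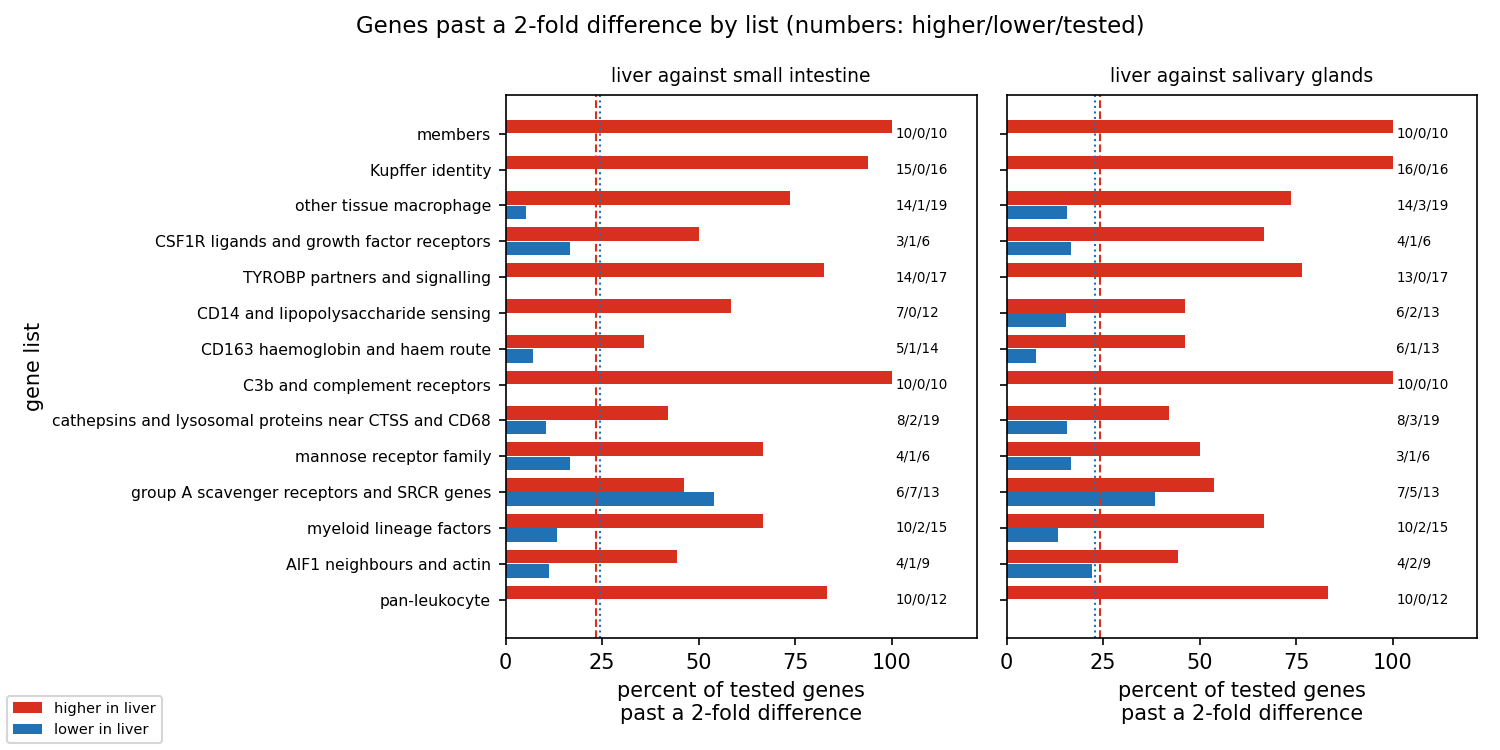
Percent of the tested genes of each list that were higher (red) or lower (blue) in liver by 2-fold or more, with the vertical dashed and dotted lines at the percent of all tested genes higher and lower and the counts printed at the right as higher, lower and tested. The members (10 of 10) and the complement list (10 of 10) are higher in liver in both panels, while the scavenger receptor list has genes on both sides (6 higher and 7 lower of 13 in the left panel).

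The members were then set beside genes of all leukocytes. The pan-leukocyte list had 12 symbols, and of 12 genes tested 10 were higher in liver in each comparison, or 5 of 7 and 6 of 8 without those that passed only through liver. With TMM scaling 0 were lower, and with scaling by library size alone or by upper quartile 1 gene, LCP1, was lower in liver than in salivary glands. Its summed FPKM was 22.3 in the library labelled small intestine, 34.7 in salivary glands and 87.97 in liver, and LCP1, the gene of the actin-bundling protein plastin, was its most abundant gene in all 3. CD52 had counts of 0, 0 and 5, too few to be tested. The counts of the 10 members divided by those of the pan-leukocyte genes gave 1.203 (1.06 to 1.37) in the library labelled small intestine, 0.732 (0.672 to 0.797) in salivary glands and 2.13 (2.05 to 2.21) in liver. By this sum the members were highest relative to leukocyte genes in liver, but the order turned with the leukocyte genes used. With PTPRC alone, the gene of the leukocyte antigen CD45, the ratios were 19.5, 46.55 and 12.6, with liver lowest. LCP1 had counts of 232, 992 and 762. Without it, an alternative chosen after seeing the data, the ratios were 2.46, 3.33 and 2.63, with salivary glands highest. Leaving out CD14 gave 0.795, 0.353 and 1.504, and leaving out CD163 and CD14, also chosen after seeing the data, gave 0.172, 0.0967 and 0.517, with liver highest each time. With LCP1 left out as well, the ratios without CD163 and CD14 were 0.351, 0.439 and 0.638. Liver was again highest, but the library labelled small intestine had the lowest value. No interval was computed for these alternative ratios, and PTPRC had 28, 20 and 679 counts. Their orders rest on the values alone and are not settled.

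Each member's log2 fold was also set against that of the summed pan-leukocyte genes, which was 2.38 for liver against the library labelled small intestine and 1.07 against salivary glands. Of the 10 members, 9 were above the first value and 10 above the second, with CD68 the exception. Without LCP1 the summed folds were 3.11 and 2.95, and then 6 members were above the first and 7 above the second. These positions rest on the folds alone, and for most members the counting interval reached across a sum with or without LCP1. In both comparisons these were AIF1, TYROBP, CD68, MRC1 and CD163. Against salivary glands they were also VSIG4 and CTSS, and against the library labelled small intestine also CD14. The interval of CD68 in the latter comparison, a ratio of 2.77 to 6.47, reached across the log2 fold of 2.38, so its place as the exception is not settled. CD163 lay close to the sums without LCP1, with log2 folds of 3.05 and 3.01.

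**Figure D4:**
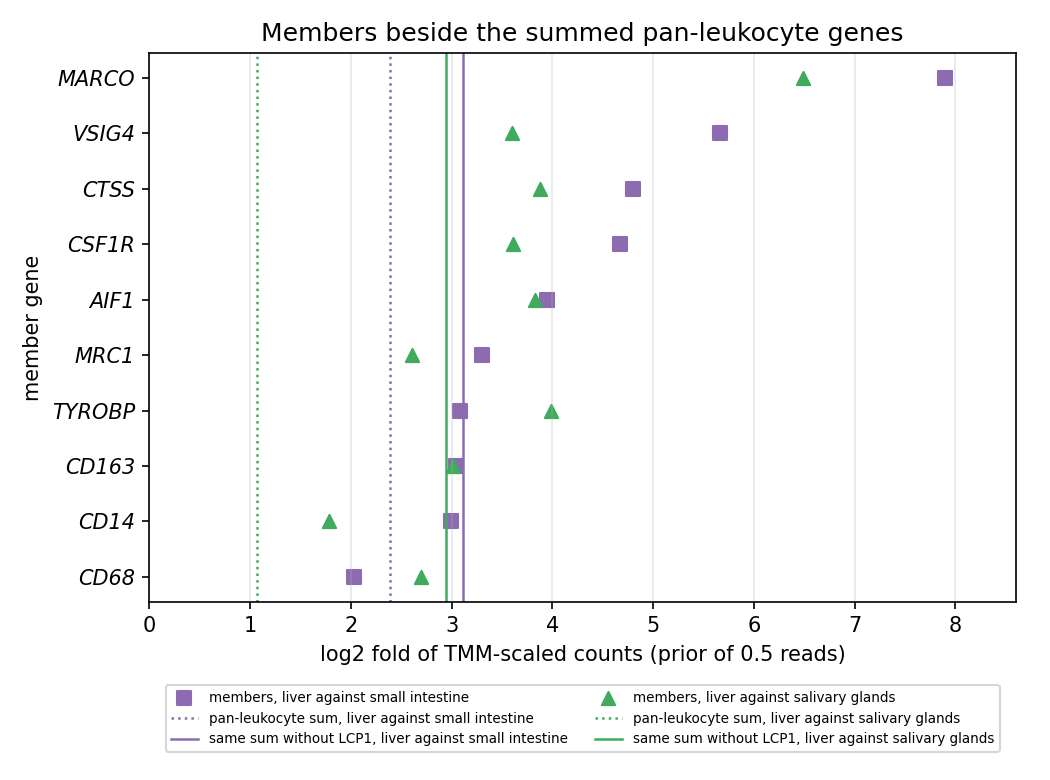
Log2 fold of TMM-scaled counts for each member in liver against the library labelled small intestine (squares) and against salivary glands (triangles), with vertical lines at the log2 fold of the summed pan-leukocyte genes (dotted, 2.38 and 1.07) and of the same sum without LCP1 (solid, 3.11 and 2.95). The points of MARCO, VSIG4, CTSS, CSF1R and AIF1 lie to the right of all lines, intervals are not drawn, and the square of MARCO rests on a prior of 0.5 reads because its count was 0.

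Markers of other cells that whole liver holds are given beside the members. Of 13 tested monocyte and neutrophil genes, 9 were higher and 1 lower in liver against the library labelled small intestine, and 12 were higher and 1 lower against salivary glands. Without those that passed the minimum only through liver, 2 of 6 and 6 of 7 were higher. Their summed FPKM was 383, 80.5 and 212 in the library labelled small intestine, salivary glands and liver. S100A8 led that list in liver, at 105, but was at 354 in the library labelled small intestine, most of the sum there. It was the gene lower in liver in that comparison. ELANE had no count in any library. Among T and NK cell genes 11 of 13 were higher in liver than in the library labelled small intestine and 10 of 12 were higher than in salivary glands, with summed FPKM values of 5.63, 6.44 and 36.7. All but 3 of these genes passed the read minimum only through liver in each comparison, and 1 of those 3 was higher in liver each time. CD247 was the most abundant of them in all 3 libraries, and GZMB had no count in any. Of 8 tested genes listed for B and plasma cells 5 were higher and 1 lower in each liver comparison, with sums of 12.3, 34.3 and 60.98. JCHAIN was the highest in liver, while PAX5 had no count in any library. PIGR, an immunoglobulin transporter of epithelial cells, stood in that list. It held 340 of 386, 1019 of 1154 and 1431 of 1976 counts, at FPKM values of 8.75, 20.8 and 19.5. The sums are thus not those of B and plasma cells alone.

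Endothelial genes, which include those of liver sinusoids where MRC1 is also known to be expressed, were higher for 10 and lower for 2 of 15 against the library labelled small intestine. Against salivary glands 11 of 15 were higher and 3 lower, and their summed FPKM was 83.8, 222 and 204. FCGR2B was the most abundant in liver, at 54.1, and in salivary glands, where its 171 was most of the sum. FCN3 had no count in any library. Of 6 tested dendritic cell genes, 2 were higher and 2 lower in liver than in the library labelled small intestine, and with scaling by library size alone 0 were lower. Mast cell genes were higher for 1 and lower for 3 of 5 in that comparison, and stellate cell and fibroblast genes were higher for 2 and lower for 7 of 13. Against salivary glands the dendritic cell genes were higher for 3 and lower for 1 of 6, the mast cell genes for 2 and 1 of 4, and the stellate cell and fibroblast genes for 5 and 6 of 13. Without genes that passed only through liver, the dendritic cell genes in that comparison were higher for 1 and lower for 1 of 3, and the mast cell genes for 0 and 1 of 2. Bile duct genes were higher for 1 and lower for 4 of 9 in liver against the library labelled small intestine and higher for 1 and lower for 8 of 9 against salivary glands. Of 8 erythroid symbols 5 were found, on 6 genes that summed to an FPKM of 4.67, 2.33 and 2.41. These genes had 49, 57 and 87 counts, of which EPB42 held 28, 50 and 78. Blood content of the tissues cannot be read from so few counts. Of 9 widely expressed genes, 1 was higher and 1 lower in liver against the library labelled small intestine, and 4 were higher and 2 lower against salivary glands, or 2 and 2 with scaling by library size alone. The part that any of these cell types had in the values of the members was not tested.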

How the data were processed

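RNA of 3 tissues from 1 animal was analysed from the tables as deposited. The authors trimmed the reads, aligned them with TopHat2 to the Malayan pangolin genome without strand, assembled new genes with Cufflinks and deposited a count of fragments per gene. The tool that made the counts and the genome build are not given in the sources used here. The deposited FPKM values were computed by the authors from counts, transcript length and library size, and their methods also name RSEM for them. The values departed from the plain quotient by factors of 0.654 to 1.96 over the members. A normalized score deposited by the authors, the count times a factor per library, was not used.

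Gene names came from the authors' BLASTX annotation. Genes were matched by Swiss-Prot symbol, and where the NR product named another protein or several genes shared a symbol, the NR product decided. Of 337 list symbols, 302 were found. Where a symbol stood on several gene models, each model was counted in the lists. The members and the lists were chosen with earlier results of these data known.

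Counts were scaled with TMM in edgeR 4.0.16 (factors 0.851, 1.17 and 1.005 for the library labelled small intestine, salivary glands and liver). Log2 folds used a prior of 0.5 reads and genes with at least 10 reads in the 2 libraries compared, and a log2 fold of 1 was the limit for a call. With 1 library per tissue no test was run. Ratios of counts have exact Clopper-Pearson intervals at 95%, and a count of 0 was set to a floor of 3 counts (0.347, 0.309 and 0.205 TMM-scaled CPM). The fold calculation was tested on simulated data. Alternatives were library size only, upper quartile factors, DESeq2 1.42.0 size factors, the ratio of FPKM, a fold of 4, no minimum or one of 50 reads, a prior of 5 reads, leaving out the 10 most abundant genes of each library (26 in all), FPKM thresholds of 0.5 and 5, and other forms of the leukocyte ratio. Python 3.11.15, numpy 2.4.6, pandas 2.3.3, scipy 1.17.1, matplotlib 3.10.9 and R 4.3.3 were used.

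Genes named in the text were taken from the members, from the lists of their partners and of Kupffer cell identity, and from each other list among the 4 genes of highest FPKM and any at 0 in all 3 libraries. Not every gene that this rule allows is named. A gene was said to pass the read minimum only through liver when it had at least 10 reads in liver and fewer than 10 in the library compared with it. The counts without such genes were added after seeing the data. CD52 and ALB were singled out after their values were seen, as were neighbouring or overlapping genes.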

Additional observations from a re-analysis of the deposited data

How the results depend on the processing

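Every member kept its direction and stayed past 2-fold in both liver comparisons under each scaling, prior and unit tried, with log2 folds from 1.57 for CD14 to 8.14 for MARCO, except that the ratio of FPKM gave no value for MARCO against the library labelled small intestine, where its FPKM was 0. A fold of 4 called 10 members higher against that library and 9 against salivary glands, CD14 being below it. Of 178 recomputed values of single members, 169 stayed within their counting intervals and 9 did not, and no called direction turned. Between salivary glands and the library labelled small intestine, library size alone gave 5 members higher, a fold of 4 gave 1 higher and the ratio of FPKM gave 1 lower. The ratio of FPKM and a prior of 5 reads each gave 2 higher, without CSF1R. At an FPKM threshold of 5 the library labelled small intestine had 2 members, and at 0.5 salivary glands had 9.

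The ratio of members to leukocyte genes moved most. With PTPRC alone it was 19.5 in the library labelled small intestine, 46.55 in salivary glands and 12.6 in liver, which made liver the lowest. By FPKM it was 1.19, 1.13 and 2.55 in the same order, so the library labelled small intestine and salivary glands lay close together. Without CD14 it was 0.795, 0.353 and 1.504 in the library labelled small intestine, salivary glands and liver, and without LCP1, an alternative chosen after seeing the data, it was 2.46, 3.325 and 2.63 in that order. Without CD163 and CD14, chosen likewise, it was 0.172, 0.0967 and 0.517. With LCP1 left out as well it was 0.351, 0.439 and 0.638, with the lowest value in the library labelled small intestine. No interval was computed for these alternatives, so their orders are not settled. The cause of these shifts was not tested.

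Library size alone moved the median log2 fold of all genes to 0.29, -0.17 and 0.47 for liver against the library labelled small intestine, liver against salivary glands and salivary glands against the library labelled small intestine, and the ratio of FPKM moved it to 0.19 for liver against salivary glands. No paired analysis was possible because each tissue had 1 library. Depth limits VSIG4, CTSS, AIF1, TYROBP and MARCO most, since their counts outside the liver were 0 to 16.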
